A study of Mus musculus with 6 samples.

Results

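The miRNAs described here belong by name to the families miR-297, miR-466, miR-467 and miR-669, the families of a large cluster in an intron of the mouse gene Sfmbt2. They were chosen by name alone, as every mouse miRNA on the array of these families with any suffix. This gave 25 of 567 mouse miRNAs, read by 77 of 1672 probes, and each miRNA had 2 to 4 probes, spotted 5 to 10 times each. The brightest probe stood for a miRNA, and each miRNA's other probes are compared with it near the end.

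MicroRNAs are short RNAs cut from hairpin precursors that lower the translation or stability of messenger RNAs matching their seed, the bases near the 5′ end. Each hairpin can give a mature miRNA from its 5′ arm and from its 3′ arm, and in the naming of this array a star marked the arm held to be the minor product. Sfmbt2 encodes a Polycomb-group protein and is imprinted in mouse, with expression from the paternal allele in early embryos and in trophoblast and placenta. Its intronic cluster arose by repeated duplication in rodents, so many of its miRNAs are nearly alike, with 5′ arms rich in U and G and 3′ arms rich in A and C.

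The RNA came from sorted Fr. B/C cells, the pro-B stage of B cell development, of BALB/c mice with no other treatment or genetic change named in the labels. Each of 3 bone marrow sorts pooled 3 adult female mice, and each of 3 fetal liver sorts pooled the embryos of 1 litter, on average 8, at day 16 of gestation. Each sort was hybridised to 1 one-colour array from 100 ng of total RNA. The design compares the fetal with the adult tissue, in a study of how the RNA-binding protein Lin28b acts in fetal B lymphopoiesis.

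None of the 25 names matched a mature sequence in the RefSeq table (0 of 25), so no sequence of a measured member is printed. The table held 8 mature sequences of relatives with the same family numbers, none of them on the array, and they are shown for the kind of sequence the families carry. All 8 lie outside chromosome 2, and so outside the Sfmbt2 cluster. Capitals mark the seed, bases 2 to 8.
miR-466i-3p: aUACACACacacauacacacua
miR-466q: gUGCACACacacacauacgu
miR-467f: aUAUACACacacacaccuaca
miR-467g: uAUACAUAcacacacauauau
miR-466j: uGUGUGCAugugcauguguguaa
miR-466k: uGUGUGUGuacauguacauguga
miR-467h: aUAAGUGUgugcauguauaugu
miR-669n: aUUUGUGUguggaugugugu

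The first 4 were made of A and C for 70.0% to 86.4% of their bases, and the last 4 of G and U for 68.2% to 90.0%. The 8 had 8 different seeds. On GRCm38 they lie at chr13:17747552-17747573 (+), chr3:28419988-28420007 (+), chr11:69635419-69635439 (-), chr5:34732872-34732892 (-), chr10:60960802-60960824 (+), chr3:85467396-85467418 (+), chr9:115381898-115381919 (+) and chr3:115979905-115979924 (+), in the order printed. Of 81 precursor genes with the 4 family numbers in RefSeq, 71 lie within Sfmbt2.

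The array annotation put the probes of 24 of the 25 miRNAs within 47964 bases of chromosome 2, between positions 10388586 and 10436549 of build mm9. The exception was miR-297a, whose brightest probe was placed on chromosome 10, at positions 42855314 to 42855332. The probes matched 13 to 21 bases of their miRNAs. Probes of 6 members were annotated to other miRNAs as well. Those of miR-466e-3p also listed miR-466a-3p, miR-466b-3p, miR-466b-3-3p and miR-466c-3p, and miR-467a* listed miR-467d*, so these names cannot be told apart in the signal. Among the members themselves, a probe of miR-297a listed miR-669b, and the probes of miR-669b listed miR-297a. Neither miR-297a nor miR-669b was well above background on any array.

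The 6 arrays sat on 1 slide, bone marrow in row 1 and fetal liver in row 2, so slide row and tissue cannot be told apart. Fetal liver replicate 2 stood apart. Its negative controls had an SD of 12.1 and those of the other 5 arrays 2.65 to 4.13. Its lowest signal flagged well above background was 58.7, against 12.9 to 15.0. Among markers, 8 of 8 lymphoid miRNAs were well above background on every bone marrow array and 4 on every fetal liver array, with summed scaled signals of 1651 to 2076 and 2065 to 3071. The lymphoid sum hides members that differ. Before scaling, miR-20a read 654 to 1090 in bone marrow and 600 to 1676 in fetal liver, and miR-181a 191 to 424 and 50.2 to 83.6. The 3 erythroid markers summed to 121 to 184 in bone marrow and 524 to 779 in fetal liver, with miR-144 not detected on any array. Only 1 of the 3 was well above background on every bone marrow array, and 1 on every fetal liver array. The 2 myeloid markers summed to 391 to 724 in bone marrow and 74.7 to 132 in fetal liver. The 3 hepatocyte markers summed to 49.4, the sum of 3 values at the floor described below, on every bone marrow array and 49.4 to 64.7 in fetal liver, with miR-192 and miR-194 not detected on any array. Of 6 stromal and endothelial markers 5 were on the array, they summed to 94.1 to 102 and 82.3 to 114, and 4 of them were not detected on any array. The part of these cell types in the results below was not tested.

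Detection came first, because the cluster lay near the bottom of the measured range. Of the 25 members, 9 were well above background on all 3 bone marrow arrays (36%), beside 23.6% of all 567 mouse miRNAs, and 2 were so on all 3 fetal liver arrays (8.00%, against 9.35% of all). In all, 14 members (56.0%) were well above background on at least 1 array, against 30.7% of all mouse miRNAs, and 11 were on none. In the pluripotency-associated miR-290 to miR-295 cluster, 2 of 14 miRNAs were well above background on any array, and in the imprinted Dlk1-Dio3 region 4 of 65. These shares are descriptions with no test.

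By array, 12, 11 and 9 members were well above background in bone marrow replicates 1 to 3, and 9, 2 and 8 in fetal liver replicates 1 to 3. The low count of 2 belonged to fetal liver replicate 2, the array with the wide negative controls. Without that array 8 members, not 2, were well above background on every fetal liver array.

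The signals were weak throughout. The brightest member reached 91.5, 58.6 and 76.5 units of processed signal on the bone marrow arrays and 75.9, 69.0 and 62.4 on the fetal liver arrays, where the brightest miRNA of each array read 5296 to 7079. Between 5 and 7 members had signals below 0 on each of 5 arrays, and 14 did on fetal liver replicate 2. After each array was scaled to the 75th percentile of the 82 probes detected on all arrays, values under a floor of 16.5 scaled units (log2 4.04) were set to it, and 12 of the 25 members were at the floor on all 6 arrays. Over the 9 members detected on every bone marrow array, the mean lay 0.50 to 1.88 log2 units above the floor in bone marrow, where the median over all such miRNAs was 1.63.

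**Figure D1:**
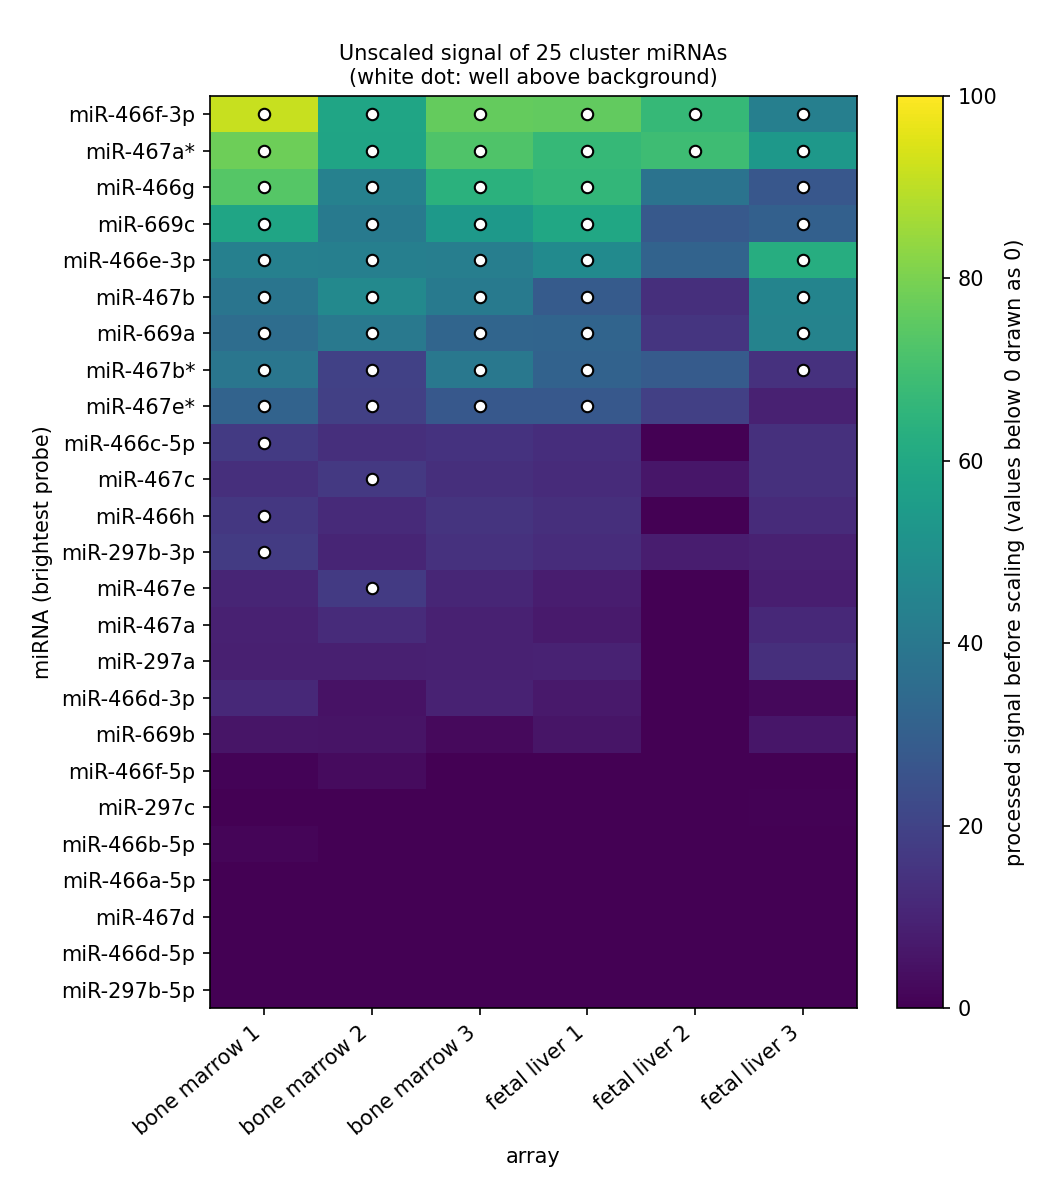
Processed signal before scaling of the brightest probe of each of the 25 cluster miRNAs (rows) on the 6 arrays (columns), with white dots where the probe was well above background. The upper 9 rows were detected on every bone marrow array, 5 further rows on 1 array, and the fetal liver 2 column has 2 dots.

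Members named for 3′ or star arms made up 5 of the 9 that were tested, which were those well above background on all 3 bone marrow arrays. The only other members with such names, miR-297b-3p and miR-466d-3p, were not tested. No member named for a 5′ arm was tested. The unscaled signal of miR-466f-3p was 91.5, 58.6 and 76.5 in bone marrow and 75.9, 67.1 and 43.3 in fetal liver. That of miR-467a* was 77.9, 58.5 and 72.4 in bone marrow and 67.0, 69.0 and 53.4 in fetal liver. These were the only members well above background on all 6 arrays, and their groups overlapped.

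The star arm miR-467b* gave 39.3, 19.3 and 40.2 in bone marrow and 31.6, 28.9 and 14.3 in fetal liver. The star arm miR-467e* gave 31.7, 19.1 and 27.4 in bone marrow and 27.6, 18.9 and 9.17 in fetal liver. After scaling, both were at the floor on bone marrow replicate 2 and fetal liver replicate 3. In fetal liver, 1 array had miR-467e* well above background and 2 had miR-467b*.

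The signal of miR-466e-3p was 43.5, 43.0 and 42.7 in bone marrow and 48.0, 31.9 and 62.4 in fetal liver. Before scaling its groups overlapped, because fetal liver replicate 2 read below every bone marrow array. It was the member with the closest bone marrow readings.

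Of the members with no arm in the name, miR-466g gave 73.7, 44.1 and 63.9 in bone marrow and 66.1, 37.9 and 27.3 in fetal liver. miR-669c gave 59.0, 41.4 and 54.0 in bone marrow and 59.7, 28.0 and 30.6 in fetal liver. In both, bone marrow replicate 2 was the low array of its group, and fetal liver replicate 1 was the high one.

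The signal of miR-467b, reported to target lipoprotein lipase in mouse macrophages, was 38.7, 46.9 and 40.8 in bone marrow and 28.7, 13.4 and 45.0 in fetal liver. miR-669a, reported to target the muscle regulator MyoD in mouse cardiac progenitors, gave 35.6, 40.3 and 32.7 in bone marrow and 32.2, 15.6 and 44.6 in fetal liver. In both the order was turned: bone marrow replicate 2 and fetal liver replicate 3 were the high arrays.

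The other 16 members were not tested. Of these, miR-297b-3p, miR-466c-5p and miR-466h, a miRNA reported to promote apoptosis in mammalian cell cultures, were well above background on bone marrow replicate 1 alone, at 17.4, 17.0 and 16.3 units. On bone marrow replicate 2 alone, miR-467c reached 16.5 and miR-467e 17.0. The 3 brightest of those never well above background were miR-467a, at -2.27 to 12.3 units over the 6 arrays, miR-297a, at -11.7 to 13.5, and miR-466d-3p, at -5.57 to 11.4. For all of these the signal gives only a bound, so no fold difference is given.

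No member differed between the tissues by the test. With limma on log2 scaled signal and Benjamini-Hochberg adjustment over the 9 members and 125 other tested miRNAs together, 0 of 9 members had an adjusted p under 0.05, where the background was 29 of all tested (21.6%), and 1 of 9 had an unadjusted p under 0.05, where the background was 32.8%. By direction, 10.4% of all tested miRNAs were called higher and 11.2% lower in fetal liver. All 9 members' differences were positive, meaning higher in fetal liver, with a median of 0.31 beside 0.25 over all tested miRNAs. Of the other tested miRNAs, 73 of 125 were positive, and 33 of the 55 whose mean level fell within the members' range. Of those 55, 12 (21.8%) were called. On fetal liver replicate 2 only 2 of the 9 tested members were well above background, and the others entered the fit with values there that were not. In these bulk samples, fewer cells holding a miRNA and less of it per cell cannot be told apart.

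The lowest p was that of miR-466e-3p, at 5.14 ± 0.36 (SD, n = 3) in bone marrow and 5.99 ± 0.20 (SD, n = 3) in fetal liver on the log2 scale. The difference was 0.85 ± 0.26 (SE), with a limma adjusted p of 0.056. It was the only member whose scaled groups did not overlap, where 41% of all tested miRNAs had groups that did not. Its limma adjusted p was 0.045 with array weights and 0.033 with the floor doubled, and over all alternatives it ran from 0.033 to 0.945. The doubled floor raised its lowest value, 4.72 on bone marrow replicate 2, which narrows the bone marrow spread. The difference was then 0.74 ± 0.15 (SE). On fetal liver replicate 2 miR-466e-3p was not well above background, at 31.9 units before scaling. The 95th percentile of the negative controls of that array was 31.0. After scaling that value was 5.85 on the log2 scale, and the fetal liver mean and the lack of overlap include it.

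For miR-467a* the levels were 5.82 ± 0.57 (SD, n = 3) in bone marrow and 6.44 ± 0.68 (SD, n = 3) in fetal liver, a difference of 0.63 ± 0.43 (SE), with a limma adjusted p of 0.365. For miR-466f-3p they were 5.92 ± 0.66 and 6.39 ± 0.89 (SD, n = 3 each), a difference of 0.47 ± 0.52 (SE), with a limma adjusted p of 0.533. For miR-669a they were 4.88 ± 0.22 and 5.29 ± 0.42 (SD, n = 3 each), a difference of 0.41 ± 0.28 (SE), with a limma adjusted p of 0.363. In each of these the difference was below the larger of its group SDs.

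The other 5 had differences of 0.06 to 0.31. They were 0.31 ± 0.50 (SE) for miR-669c, 0.31 ± 0.42 for miR-467e*, 0.29 ± 0.55 for miR-467b*, 0.23 ± 0.58 for miR-466g and 0.06 ± 0.30 for miR-467b, with limma adjusted p of 0.615 to 0.875. Their SDs reached 0.73 in bone marrow and 1.01 in fetal liver, both in miR-466g. The members' median of 0.31 was 0.04 without fetal liver replicate 1, 0.79 without fetal liver replicate 3, 0.05 without bone marrow replicate 2, 0.47 without bone marrow replicate 1 and 0.49 without bone marrow replicate 3. Without fetal liver replicate 2, 0 members were called, the difference of miR-467b* was -0.0065, and those of miR-467b and miR-669a were 0.35 and 0.64.

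**Figure D2:**
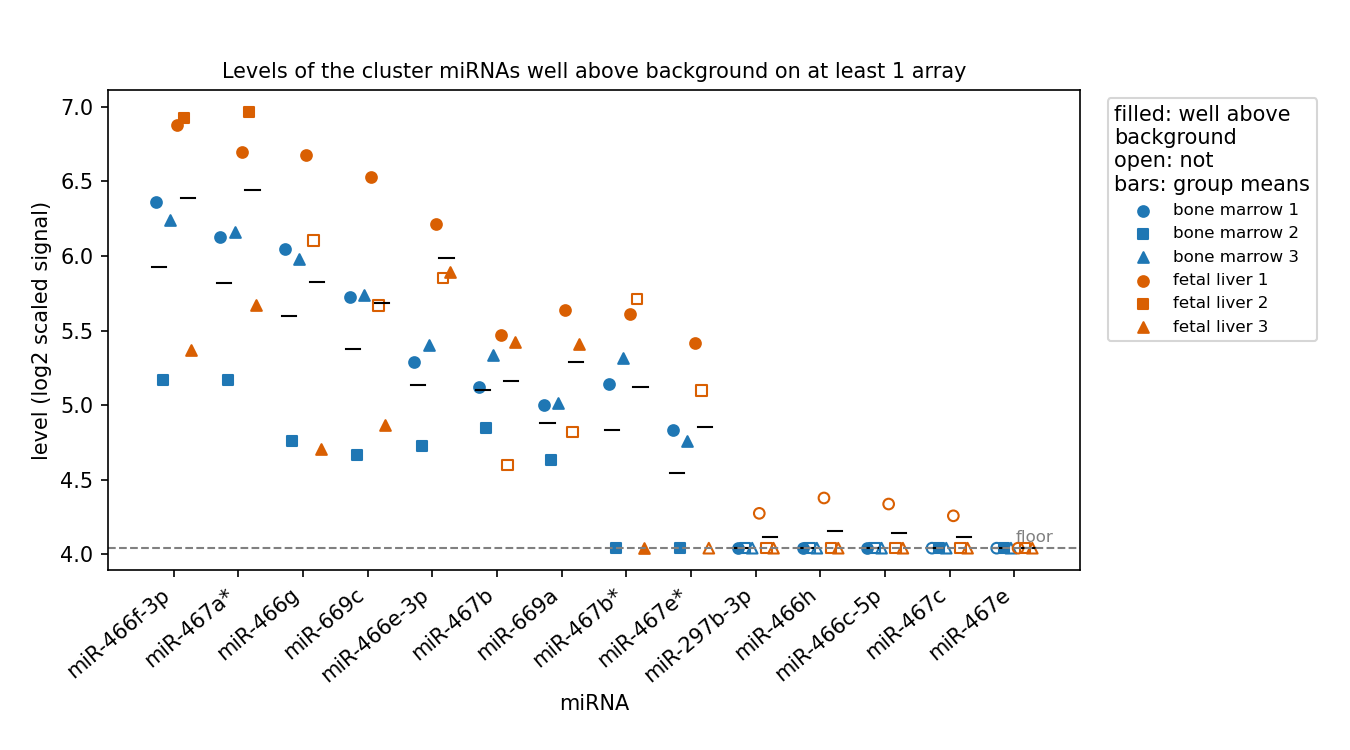
Log2 scaled signal (y axis) of the 14 cluster miRNAs well above background on at least 1 array (x axis), 1 symbol per array, filled where well above background, with group means as bars and the floor of 4.04 dashed. The groups overlap for every tested member except miR-466e-3p, and the 5 members on the right lie at or close to the floor.

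The sign of these differences depended on the scaling. The median over all tested miRNAs was 0.25 as scaled, -0.51 with no scaling, -0.07 with the percentile taken over all mouse probes, 0.03 with quantile normalisation and 0.01 in the authors' deposited log2 table, a shift of up to -0.76. Under the same 5 settings 0, 8, 4, 6 and 5 of the 9 members were negative. Read against that median, miR-466e-3p (0.25 to 0.60 above it), miR-467a* (0.31 to 0.40) and miR-466f-3p (0.21 to 0.31) were above it under all 5. miR-467b (-0.49 to -0.10) and miR-466g (-0.10 to -0.02) were below it under all 5, and the other 4 changed sides. The first 3 settings differ by 1 factor per array, which moves every difference alike apart from the floor. Distances to the median under these 3 are therefore not separate checks, and that of miR-466e-3p was 0.60 under each.

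**Figure D3:**
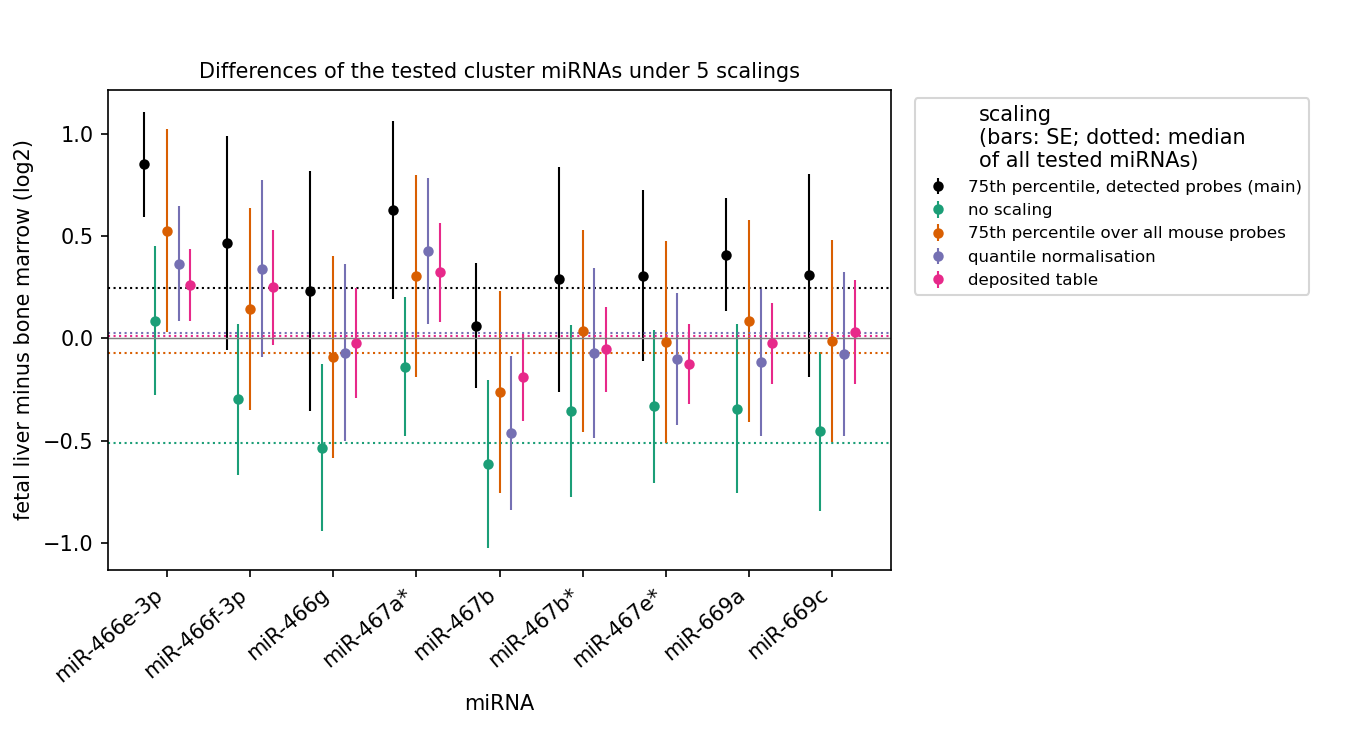
Fetal liver minus bone marrow difference (log2, y axis) of the 9 tested cluster miRNAs (x axis) under 5 scalings, with SE bars and dotted lines at the median of all tested miRNAs under each. The dotted lines span -0.51 to 0.25, and the members move up and down with them.

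Most tested members shared 1 order of the arrays within each tissue. This was noticed after the values were seen and is given as a description of the unscaled signal, with fetal liver replicate 2 left out. In 6 of the 9 tested members (miR-466f-3p, miR-466g, miR-467a*, miR-467b*, miR-467e* and miR-669c) bone marrow replicate 2 was below the other 2 bone marrow arrays and fetal liver replicate 3 was below fetal liver replicate 1. The same held for 7 of 125 other tested miRNAs (5.60%), and for 7 of the 55 of like level (12.7%). The opposite order held for miR-467b and miR-669a, and for 72 of the 125 others (57.6%), and miR-466e-3p fitted neither. The untested members, each well above background on 1 array or on none, were divided. Of these, miR-297b-3p, miR-466d-3p and miR-466h had the order of the 6. The opposite order held for miR-466f-5p, miR-467a, miR-467c and miR-467e, and the rest fitted neither.

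The median ratio of bone marrow replicate 2 to the mean of replicates 1 and 3 was 0.733 over the 9 members and 1.40 over the other tested miRNAs. The median ratio of fetal liver replicate 3 to replicate 1 was 0.571 and 1.28. For miR-467b* both ratios were under 0.5, at 0.484 and 0.453, while for miR-467b, the other arm of the same hairpin, they were 1.18 and 1.56. The brightest probes of the pair lay close together on chromosome 2 (mm9), at 10402927 to 10402941 and 10402886 to 10402903.

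**Figure D4:**
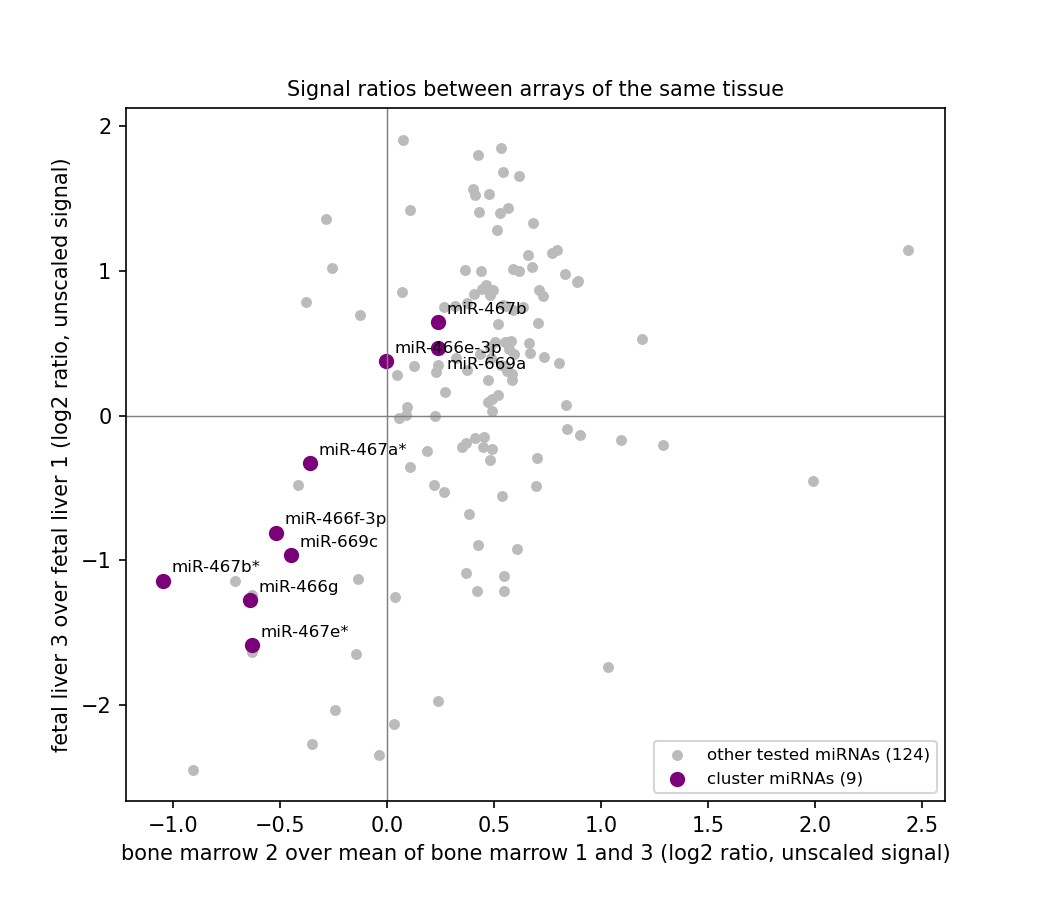
Log2 ratio of unscaled signals of bone marrow replicate 2 to the mean of replicates 1 and 3 (x axis) and of fetal liver replicate 3 to replicate 1 (y axis), 1 point per tested miRNA, cluster members in purple and 124 others with a positive ratio in grey. Most grey points lie right of 0, while 6 of 9 members lie in the lower left.

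Among miRNAs well above background on 5 arrays, 5 of 8 members and 2 of 101 others (1.98%) had the members' order. The 2 others, named after their values were seen, were miR-574-3p, with 86.9, 51.3 and 81.3 in bone marrow and 70.5, 69.3 and 31.9 in fetal liver, and miR-877*, with 44.5, 23.4 and 28.0 in bone marrow and 39.7, 23.9 and 16.8 in fetal liver. The opposite arm miR-574-5p, with 84.8, 100.5 and 91.6 in bone marrow and 79.1, 54.4 and 66.9 in fetal liver, did not have that order. The arms of miR-574 are printed because they come from 1 hairpin outside the cluster, chr5:64970364-64970385 (+) for the 3′ arm and chr5:64970328-64970350 (+) for the 5′ arm on GRCm38 (RefSeq), with seeds in capitals.
miR-574-3p: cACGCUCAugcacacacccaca
miR-574-5p: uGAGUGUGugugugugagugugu

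The 3′ arm was 81.8% A or C and the 5′ arm 91.3% G or U. Of the other miRNAs with the members' order, miR-877* (miR-877-3p in RefSeq) had 59.1% A or C and miR-207 had 52.2%. miR-135a*, miR-146a, miR-197 and miR-468 had the order too, and their shares are not given. They and miR-207 were well above background on too few arrays to belong to the set described above. The shares given thus cover only part of the list, and a link between base composition and array order was not tested.

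The count of 6 depended on the scale. With scaled signal, where bone marrow replicate 2 is multiplied by 0.614 and fetal liver replicate 1 by 1.55, all 9 members and 47 of 125 others (37.6%) had the members' order. In the authors' deposited table it was 7 members and 17 others (13.6%), and with all probes of a miRNA averaged it was 6 members and 6 others (4.80%). The share was above that of the other miRNAs under all 4. These settings reuse the same arrays, and the order was chosen from these members' values, so they are not separate checks.

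Scaling widened the spread of every tested member in bone marrow. This follows from the ratios of bone marrow replicate 2 given above and is not a further result. Scaling multiplies that array by 0.614, and bone marrow replicates 1 and 3 by 0.898 and 0.990. The SD over the 3 bone marrow arrays was smaller before scaling than after it for 9 of 9 members, and for 32 of 125 other miRNAs (25.6%). The median SD of the members was 0.27 before and 0.62 after scaling, and that of the others 0.33 before and 0.16 after. The closest readings were those of miR-466e-3p, with an unscaled SD of 0.01 and a scaled SD of 0.36.

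**Figure D5:**
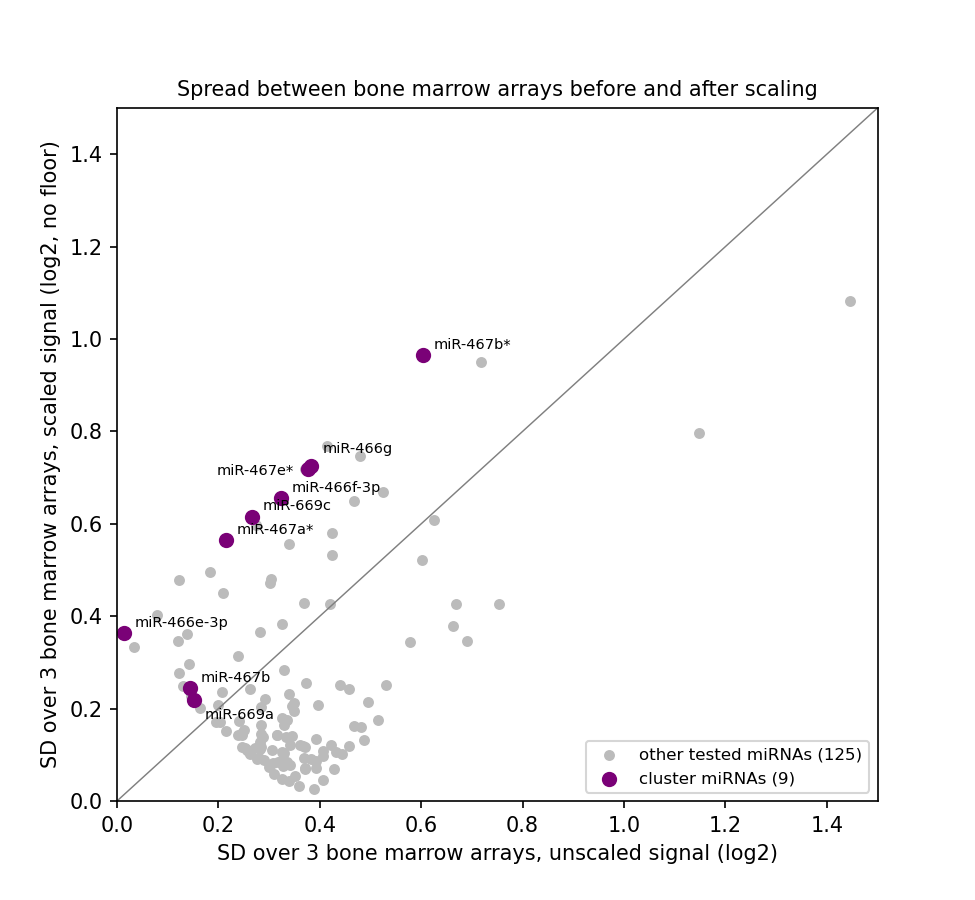
SD of log2 signal over the 3 bone marrow arrays before scaling (x axis) and after scaling without the floor (y axis), 1 point per tested miRNA. All 9 cluster members lie above the diagonal of equal SD, and most of the 125 others lie below it.

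Of 26 probes of the 9 tested members, 24 had the sign of the brightest probe, and both exceptions belonged to miR-467e*, the lower at -0.03. All 20 probes of the 6 members with the low bone marrow replicate 2 and fetal liver replicate 3 had that order, as did none of the 4 probes of miR-467b and miR-669a. These probes share a target and are not replicates. Between members, probe positions overlapped only for miR-467a and miR-467b, whose brightest probes, at 10402888 to 10402905 and 10402886 to 10402903 of chromosome 2 (mm9), shared 16 bases. Their detection differed: miR-467b was well above background on 5 arrays and miR-467a on 0. Their array order before scaling was the same, with bone marrow replicate 2 and fetal liver replicate 3 high. For miR-467a the ratio of bone marrow replicate 2 to the mean of replicates 1 and 3 was 1.33, and for miR-467b 1.18. The ratio of fetal liver replicate 3 to replicate 1 was 1.61 and 1.56.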

How the data were processed

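Total RNA of 6 sorts was read on one-colour Agilent miRNA arrays, and 3 arrays per group limit the precision. Per the file headers, Feature Extraction 9.5.3.1 made the deposited intensity values (processed signal) and the deposited flags, scored 0 or 1, for outlier spots and spots well above background. The authors' deposited log2 table was used as an alternative, with scale and centring unstated. Here spots of a probe were averaged without outliers, a probe was taken as well above background when over 50 percent of its spots were flagged so, and the brightest probe stood for a miRNA. Arrays were scaled to the 75th percentile of probes detected on all arrays, floored at 16.5 and log2 transformed. The 134 miRNAs well above background on all arrays of a group were fitted with limma 3.58.1 in R 4.3.3, and called at a Benjamini-Hochberg adjusted p under 0.05. All 134 met this filter in bone marrow and 53 of them in fetal liver too, so none entered through fetal liver alone. On data simulated for this comparison over 134 miRNAs, 0.981% of unchanged miRNAs, 53.3% of log2 changes of 1 and 74.7% of log2 changes of 2 were called. The simulation drew its spreads from all tested miRNAs. After scaling, the median SD in bone marrow was 0.62 for the members and 0.16 for the others, so these shares do not carry over to the members. The members and lists were chosen with earlier results of these data known. Named were all tested members, all well above background on 1 array and the 3 brightest others. Pairs of near-identical members were to be set by edit distance, and with no member sequences used here, probe annotations and positions took their place. Alternatives covered background, scaling, floor, filter, probes, array weights, replicate block and each array left out. Nothing in the labels pairs the replicate numbers, and same-numbered arrays correlated at 0.17, -0.13 and -0.24 in their deviations from group means. Each sort used other animals, so the p-values measure the spread between these sorts.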

Additional observations from a re-analysis of the deposited data

How the results depend on the processing

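Over 22 alternatives, 156 of 191 values of single members kept their direction and side of the threshold, 33 changed sign and 2 (miR-466e-3p, 0.92 with array weights and 0.74 with the floor doubled) passed the threshold, which made 1 member called under each. With no scaling the differences were -0.30 for miR-466f-3p, -0.53 for miR-466g, -0.14 for miR-467a*, -0.61 for miR-467b, -0.35 for miR-467b*, -0.33 for miR-467e*, -0.34 for miR-669a and -0.45 for miR-669c, with a members' median of -0.34. With the percentile over all mouse probes they were -0.093 for miR-466g, -0.26 for miR-467b, -0.020 for miR-467e* and -0.014 for miR-669c. With quantile normalisation they were -0.070 for miR-466g, -0.46 for miR-467b, -0.072 for miR-467b*, -0.10 for miR-467e*, -0.12 for miR-669a and -0.076 for miR-669c. In the deposited table they were -0.023 for miR-466g, -0.19 for miR-467b, -0.054 for miR-467b*, -0.13 for miR-467e* and -0.024 for miR-669a. Leaving out each array in turn, the difference ran from -0.19 to 0.79 for miR-466g, -0.092 to 0.35 for miR-467b, -0.11 to 0.83 for miR-467b*, -0.11 to 0.72 for miR-669c, 0.089 to 0.98 for miR-466f-3p, 0.30 to 1.01 for miR-467a*, 0.025 to 0.71 for miR-467e*, 0.23 to 0.64 for miR-669a and 0.64 to 0.98 for miR-466e-3p. The highest value came without fetal liver replicate 2 for miR-467b and miR-669a, without bone marrow replicate 3 for miR-466e-3p and without fetal liver replicate 3 for the other 6. With the list of tested miRNAs held fixed and fetal liver replicate 2 left out, a setting added after seeing the data, miR-467b* was at -0.0065. The cause of these changes was not tested. Leaving out 1 array gave 11 to 42 called miRNAs of all tested, 0 called members, a members' median of 0.043 to 0.79, and 2 to 8 members well above background on every fetal liver array. The calls over all miRNAs were 18 when all 6 arrays had to be well above background, 49 with every probe tested, 12 with no filter and 9 with normexp. Requiring all spots well above background left 0 members detected in fetal liver, and requiring 1 spot gave 14 in bone marrow. The members with the low bone marrow replicate 2 and fetal liver replicate 3 numbered 9 with scaled signal. With the replicate block 23 miRNAs and 0 members were called, and not every array correlated best with its own number. Signals near the negative controls limit what these arrays show for the 16 members that were not tested. The limit reached most tested members on fetal liver replicate 2. On that array 4 of the 25 members exceeded the 95th percentile of the negative controls, and 2 were well above background.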
